A study of Drosophila melanogaster with 9 samples.

Results

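The 9 genes described here, of 16727 gene symbols counted, encode transcription factors that divide the fly brain and nerve cord into regions. They are the head gap genes oc and ems, the columnar genes vnd and Dr, the homeobox genes HGTX and Hmx, and the T-box genes mid, H15 and bi. They were chosen by symbol with their counts in all 9 libraries known, so their own values are given as a description, with no p-value. RNA-seq measured polyadenylated transcripts in Drosophila melanogaster brain tumours of 3 groups, with 3 libraries each. Every group carried GFP-marked flip-out clones in which an actin driver (actinF/O) expressed HA-tagged dpn and E(spl)mγ (UAS-HA-dpn and UAS-HA-mγ, together called DM), and no group lacked them. Both are HES-family transcriptional repressors active in neuroblasts, the neural stem cells of the fly. The primary group was sorted GFP-positive cells of the third instar larval central nervous system, 4 days after clone induction, dissociated with collagenase from 150 brains per library. T0 was the GFP tumour mass that grew in adult w1118 hosts in 8 to 10 days after the first transplantation. T3 was the mass after the fourth transplantation, also grown for 8 to 10 days. Each T0 and T3 library pooled 25 hosts, and the labels name no sort for them. Sorting, dissociation, host and growth time therefore cannot be told apart in any comparison with primary.

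Regional transcription factors of this kind give each part of the embryonic neuroectoderm, and the neuroblasts that leave it, an identity along the body axis. Head gap genes mark domains of the brain from front to back. The columnar genes vnd, ind and Dr mark the ventral, intermediate and dorsal stripes of the neuroectoderm. T-box proteins bind DNA through a shared domain and act in the segments, the heart, the nervous system and the appendages.

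Libraries held 7932772 to 14093032 counts. Markers of neuroblasts were present throughout: the 8 genes of that list summed to 4138 to 4759.5 CPM in primary, 4689.6 to 5735 CPM in T0 and 4435 to 5042 CPM in T3 (CPM, counts per 1e6 counts of a library after scaling). The gene mira gave the largest share, at 2491 CPM in T0, 2418 CPM in T3 and 1834 CPM in primary on average. In T0, 4 of the 8 rose and 3 fell, among them ase, at 39.3 CPM against 195 CPM in primary (log2 fold change -2.31), wor (-0.68) and dpn (-1.34). In T3, 1 rose (mira) and 2 fell (ase and dpn). The marker dpn is also overexpressed in every group. The 9 neuronal markers summed to 1108 to 1984 CPM in primary, 168 to 249 CPM in T0 and 112 to 174 CPM in T3, and all 9 fell in both transplanted groups. The 6 glial markers summed to 433 to 621 CPM, 665 to 891 CPM and 464 to 708 CPM in the same order, most of it from Eaat1 and nrv2. In T0, alrm, gcm and repo fell (log2 fold change -3.74, -2.53 and -2.49) and Eaat1 rose (1.40), with a median of -1.36 over the list. In T3, alrm, gcm and nrv2 fell (-4.99, -2.44 and -0.50) and Eaat1 rose (0.93), with a median of -0.64. Hemocyte markers, 7 genes, summed to 43.1 to 52.9 CPM in primary, 94.2 to 189.6 CPM in T0 and 80.01 to 103 CPM in T3, with He at 0 counts in primary. The largest share came from crq. Of the 6 hemocyte genes tested, 4 rose and 0 fell in T0. In T3, 4 rose and 1, Pxn, fell (log2 fold change -1.98). The 5 adult fat body markers summed to 8.03 to 15.4 CPM, 98.7 to 240.2 CPM and 10.5 to 87.4 CPM, with Lsp2 at 0 counts in primary. Muscle and heart markers, 8 genes, stayed at 2.26 to 6.12 CPM in sum in every library. The 4 ovary and germline markers summed to 53.0 CPM in T0 replicate 2, and to 4.70 to 16.2 CPM in the other libraries. The 4 imaginal disc markers summed to 86.5 to 141 CPM in primary, 66.1 to 91.5 CPM in T0 and 33.8 to 68.8 CPM in T3. Of the 3 tested, vg and ap fell in T0 (log2 fold change -3.41 and -2.48) and in T3 (-3.14 and -3.02). Dll, at 68.7 CPM in T0, 43.4 CPM in T3 and 53.8 CPM in primary, was not called. The overexpressed genes themselves were at 601 to 702 CPM (dpn) and 482 to 534 CPM (E(spl)mgamma-HLH) in primary, 176 to 322 and 134.5 to 244 CPM in T0, and 223 to 262 and 169.6 to 193 CPM in T3. Counts per gene symbol do not separate transgene from endogenous transcript for either gene. In such bulk samples, fewer cells of a type and less RNA per cell cannot be told apart.

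All 9 genes averaged at least 1 CPM in primary. Only bi, mid and Hmx did so in T0, and the same 3 in T3. All 9 passed the filter on low counts. For oc, ems, Dr and HGTX only the primary libraries reached its cutoff, for vnd these and T0 replicate 4, and H15 reached it in 2 primary libraries and T3 replicate 2, so counts of calls among them were partly fixed by the filter. In T0 against primary, 7 of the 9 passed the threshold as lower (adjusted p under 0.05, edgeR's quasi-likelihood test) and 0 as higher, where 23.2% and 22.4% of all 9082 genes tested did, 45.6% in both directions. The 7 were also lower without overlap, as were 27.4% of all genes, and 27.4% were higher without overlap. In T3 against primary, 7 passed as lower and 1, mid, as higher, where 24.1% and 23.1% of all genes did, 47.2% in both directions. In T3 the libraries of 7 of the 9 genes lay below primary without overlap and those of 0 above it, where 29% and 28.9% of all genes did so. In T3 against T0, 0 of the 9 passed by edgeR, as did 0% of all genes. Over all genes in that comparison, 746 had an unadjusted p under 0.05, DESeq2 called 9 and limma-voom called 0. With no filter on low counts, edgeR called 96 of 14539 genes there, 5 of the 9 among them (Dr, mid, H15, bi and Hmx). These counts describe genes picked with these contrasts known. Both comparisons with primary share the same 3 primary libraries.

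**Figure D1:**
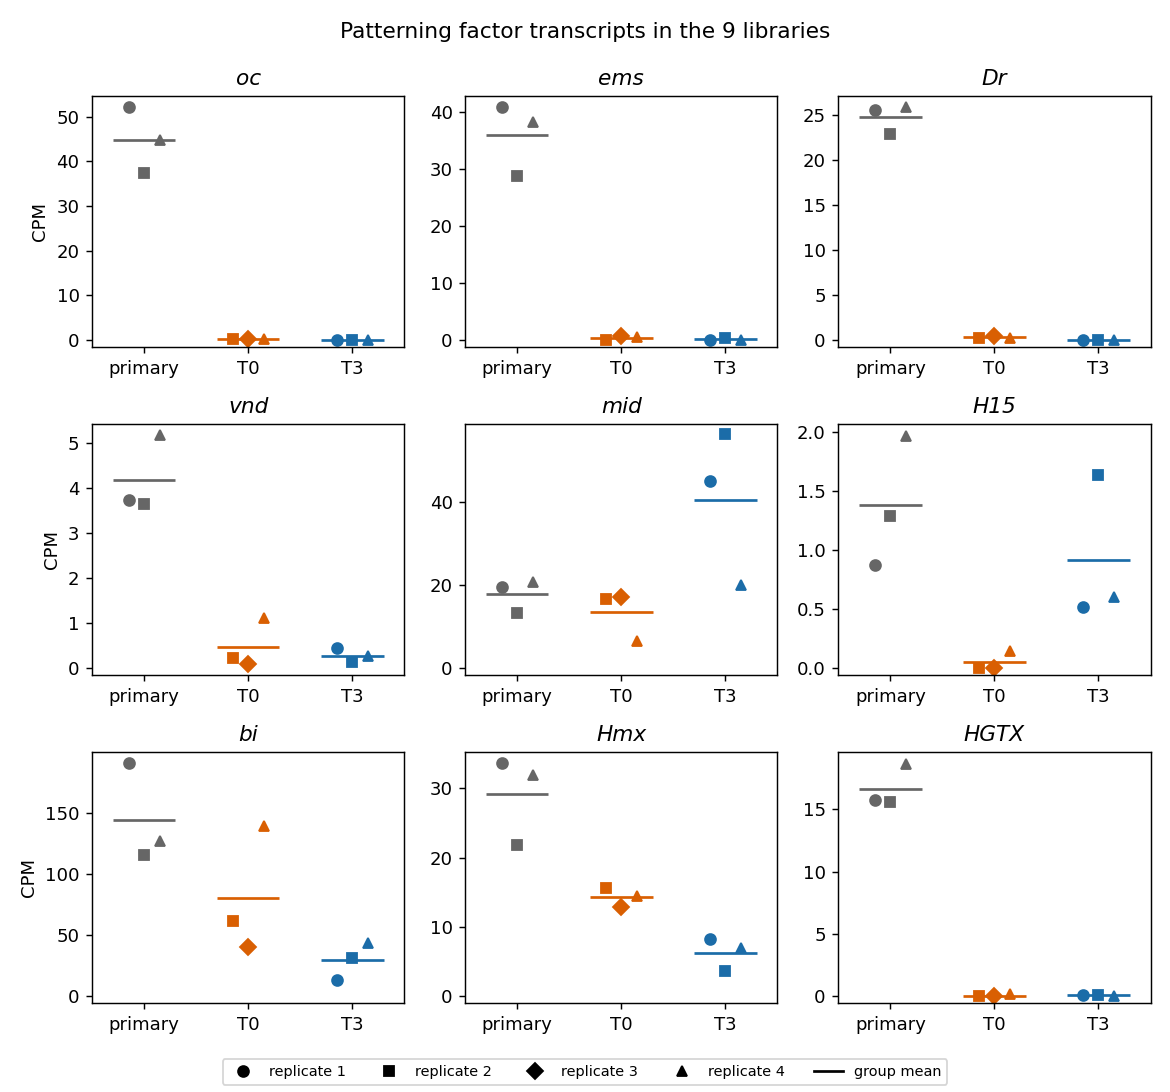
CPM of each of the 9 genes (y axis, a scale per gene) in the primary, T0 and T3 groups (x axis). Symbols are libraries, shaped by replicate number, and lines are group means of 3 libraries; oc, ems, Dr and HGTX lie at or under 0.733 CPM in every transplanted library, while mid, bi and Hmx stay measurable.

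The head gap gene oc, also called orthodenticle, is an Otx-class homeobox gene needed for the anterior brain. It lies on chromosome X (8630159 to 8650681, minus strand, dm6), with 6 annotated transcripts and 5041 exonic bases. Its counts were 713, 462 and 477 in primary replicates 1, 2 and 4, next 1, 3 and 4 in T0 (replicates 2, 3 and 4), and 0 in every T3 library. As CPM, oc averaged 0.227 ± 0.0993 in T0 and 44.7 ± 7.39 in primary (SD, n = 3 each). Every transplanted library was far under every primary library, and T3 held no read of it. The pooled T0 level was 0.534% of the primary level (exact 95% counting interval 0.230% to 1.05%). With a floor of 3 counts over the T3 libraries, T3 was at least 499-fold lower than primary and at least 2.66-fold lower than T0.

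The gene ems (empty spiracles), the EMX-class head gap gene of more posterior brain neuroblasts, lies on 3R (13901853 to 13904620, plus strand), with 1 transcript of 2 exons. Counts of ems were 558, 356 and 408 in primary replicates 1, 2 and 4, then 0, 8 and 7 for T0 replicates 2, 3 and 4, and 0, 2 and 0 for T3 replicates 1, 2 and 4. T0 averaged 0.416 ± 0.376 CPM, against 35.9 ± 6.35 CPM in primary. Reads were thus left in 3 of the 6 transplanted libraries, and each of those was below all primary libraries. The pooled T0 level was 1.25% of primary (counting interval 0.698% to 2.07%). T3 was 599-fold lower than primary (counting interval 165 to 4948), and its 2 counts all came from T3 replicate 2. The fitted log2 fold change of T3 against primary was -8.96 ± 0.69 (SE), and -11.74 without that library. T3 then had 0 counts, so the size of -11.74 is not measured.

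Among the columnar genes, Dr (also msh, Msx class) marks the dorsal column. Dr lies on 3R (29556386 to 29565244, plus strand), with 1 transcript of 2 exons. It had 350, 283 and 275 counts in primary replicates 1, 2 and 4, then 2, 5 and 3 for T0 replicates 2, 3 and 4, and none in T3. Primary was even across its libraries, with a coefficient of variation of 6.66%. T0 averaged 0.302 ± 0.135 CPM, against 24.7 ± 1.65 CPM in primary, a level of 1.21% (counting interval 0.580% to 2.24%). T3 was at least 274-fold lower than primary and at least 3.33-fold lower than T0.

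The ventral column gene vnd, of the Nkx2 class, was already scarce in primary. It lies on X (582121 to 598151, plus strand). The spans of vnd and CG13366, on the other strand, overlap over 13071 bases, with 0 exonic bases shared. Counts of vnd were 51, 45 and 55 in primary replicates 1, 2 and 4, then 2, 1 and 15 for T0 replicates 2, 3 and 4, and 6, 1 and 3 for T3 replicates 1, 2 and 4. All transplanted libraries lay below primary, and T0 replicate 4 held 15 of the 18 T0 counts. Its level was 13.1% of primary in T0 (counting interval 7.58% to 21.5%) and 7.31% in T3 (3.44% to 13.8%). The log2 fold change of T0 against primary was -3.01 ± 0.65, and -4.66 without T0 replicate 4. That of T3 against T0 was -0.77 ± 0.79, and 0.88 without T0 replicate 4, so its direction depends on that library. CG13366 itself averaged 265 ± 8.42 CPM in T0, 221 ± 22.6 CPM in T3 and 256 ± 56.5 CPM in primary. Whether reads were counted by strand was not given in the sources used.

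The Nkx6 gene HGTX acts in ventrally projecting motor neurons and their progenitors. It lies on 3L (14583222 to 14599540, minus strand), with 2 transcripts and 3014 exonic bases. HGTX had 216, 193 and 199 counts in primary replicates 1, 2 and 4, then 0, 0 and 2 for T0 replicates 2, 3 and 4, and 1, 1 and 0 for T3 replicates 1, 2 and 4. Primary libraries were within 1.20-fold of each other. The highest count in any transplanted library was 2. T0 was 276-fold lower than primary (counting interval 76.0 to 2282) and T3 was 275-fold lower (75.9 to 2278). Between T3 and T0, with 2 counts each, no direction can be read. The log2 fold change of T0 against primary was -7.90 ± 0.60, and -10.55 without T0 replicate 4, which held both counts. T0 then had 0 counts, so the size of -10.55 is not measured.

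The NK-like homeobox gene Hmx, a counterpart of vertebrate Hmx genes expressed in head neuroectoderm, behaved unlike HGTX. Hmx lies on 3R (17558930 to 17569097, plus strand), with 3 transcripts. It was at 33.7, 21.8 and 31.9 CPM in primary replicates 1, 2 and 4, at 15.6, 12.9 and 14.5 CPM for T0 replicates 2, 3 and 4, and at 8.21, 3.65 and 7.01 CPM for T3 replicates 1, 2 and 4. The 3 groups did not overlap, and each later stage lay below the one before. The log2 fold change was -1.02 ± 0.26 in T0 against primary, -2.19 ± 0.27 in T3 against primary and -1.16 ± 0.27 in T3 against T0. The pooled level was 48.9% of primary in T0 (counting interval 43.8% to 54.6%) and 23.0% in T3 (19.8% to 26.6%). Without any 1 library, the log2 fold change stayed between -1.19 and -0.89 in T0 against primary and between -2.42 and -1.93 in T3 against primary. T0 libraries were the most alike, with a coefficient of variation of 9.53%, against 37.6% in T3 and 22.1% in primary.

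**Figure D2:**
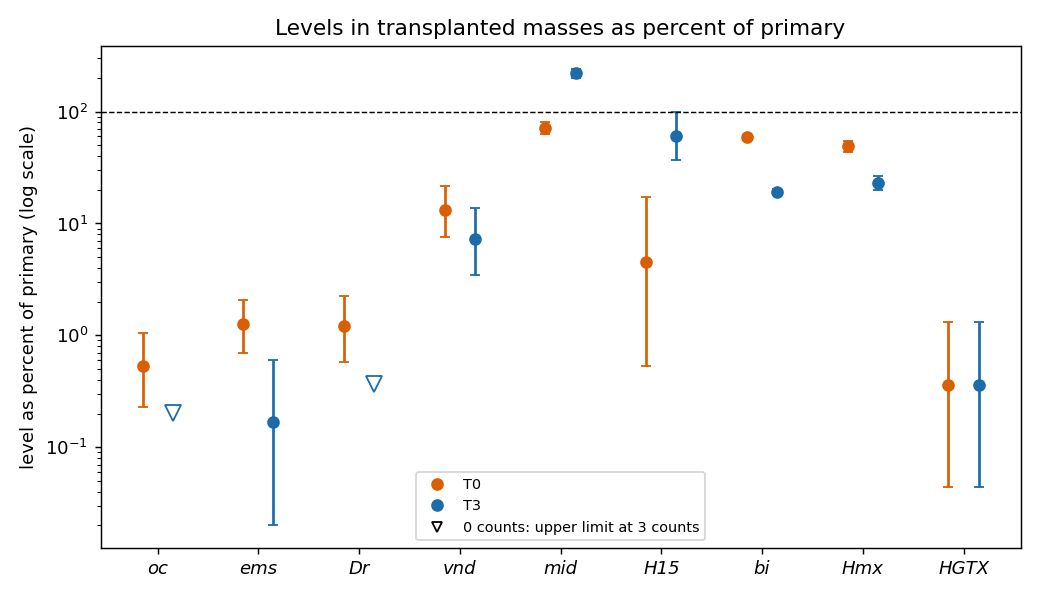
Level of each gene in T0 and T3 as percent of the primary level (y axis, log scale), from counts pooled over 3 libraries, with exact 95% counting intervals that leave out the spread between libraries. Open triangles mark upper limits where T3 held 0 counts; mid in T3 is the one value above 100%, at 219.7%, and HGTX is at 0.363% in both.

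The T-box genes did not follow 1 pattern. The neighbours mid and H15 (also nmr2 and nmr1, the Tbx20 class) act in segment patterning and in heart development. H15 lies on 2L (5404280 to 5416593, plus strand) and mid lies on the same strand (5461639 to 5467610), 45045 bases away. CPM of mid were 19.5, 13.2 and 20.8 in primary replicates 1, 2 and 4, then 16.5, 17.1 and 6.55 for T0 replicates 2, 3 and 4, and 45.2, 56.4 and 20.1 for T3 replicates 1, 2 and 4. T3 replicate 4 lay within the primary range, whereas the other T3 libraries were higher than every primary and T0 library. All 3 T3 libraries lay above all 3 T0 libraries. T0 averaged 13.4 ± 5.95 CPM and primary 17.9 ± 4.06 CPM, a log2 fold change of -0.42 ± 0.39 with overlapping libraries. T3 averaged 40.5 ± 18.6 CPM. The log2 fold change of T3 was 1.18 ± 0.39 against primary and 1.60 ± 0.40 against T0. Without any 1 library these values ran from 0.88 to 1.51 and from 1.26 to 1.93. The call of mid in T3 against primary describes a gene picked with its values known. It was lost without T3 replicate 1, T3 replicate 2, primary replicate 1 or primary replicate 2.

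H15 was close to the limit of detection in all groups. Counts of H15 were 12, 16 and 21 in primary replicates 1, 2 and 4, then 0, 0 and 2 for T0 replicates 2, 3 and 4, and 7, 13 and 7 for T3 replicates 1, 2 and 4. T0 lay below both other groups without overlap, while T3 and primary overlapped. T0 was 22.2-fold lower than primary (counting interval 5.83 to 189), and T3 was 13.5-fold higher than T0 (3.40 to 117). T3 stood at 60.8% of primary (36.6% to 99.3%). Both T0 counts came from T0 replicate 4, and the log2 fold change of T0 against primary was -4.31 ± 0.92 with it and -6.95 without it. Without it T0 had 0 counts, so the size of -6.95 is not measured. In T3 against T0, 2 of the 9 genes, mid and H15, had higher libraries without overlap and 3, oc, Dr and Hmx, had lower ones. Of all genes tested, 7.33% and 7.8% did so.

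The gene bi (also omb, the Tbx2 and Tbx3 class) is a target of Dpp signalling in the wing and acts in the optic lobe. It lies on X (4412856 to 4485647, plus strand), with 7 transcripts and 6095 exonic bases. The noncoding gene CR32773 on the other strand spans it, shares 0 exonic bases and had 7 counts over the 9 libraries. CPM of bi were 191, 115.2 and 127 in primary replicates 1, 2 and 4, then 61.5, 40.5 and 139.6 for T0 replicates 2, 3 and 4, and 13.0, 31.1 and 43.7 for T3 replicates 1, 2 and 4. T0 replicate 4 lay within the primary range and the other T0 libraries below it. All T3 libraries lay below primary, but T3 replicate 4 was above T0 replicate 3. T0 averaged 80.5 ± 52.2 CPM and primary 144 ± 40.7 CPM, a log2 fold change of -0.84 ± 0.44, and -1.50 without T0 replicate 4. In T0 against primary bi, also picked with its values known, passed the threshold only without that library or with no filter on low counts. T3 averaged 29.3 ± 15.4 CPM, a log2 fold change of -2.31 ± 0.47 against primary, which ran from -2.74 to -1.94 without any 1 library. Against T0 it was -1.47 ± 0.46, and -0.80 without T0 replicate 4.

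The ranks of bi and mid were opposite in replicate 4 of both transplanted groups. T0 replicate 4 had the most bi and the least mid of the T0 libraries, and T3 replicate 4 the most bi and the least mid of the T3 libraries. Between the other T3 libraries they were not, since replicate 2 had more of both than replicate 1. The number of bi counts per mid count was 3.72, 2.36 and 21.3 for T0 replicates 2, 3 and 4, and 0.287, 0.551 and 2.17 for T3 replicates 1, 2 and 4. In primary replicates 1, 2 and 4 it was 9.79, 8.71 and 6.09. The labels do not say that a shared replicate number marks a shared tumour line. T0 replicate 4 was also the library with most of the T0 counts of vnd (15 of 18), and with all those of H15 and HGTX (2 each). It was the deepest T0 library, with 12988767 counts against 9482014 and 10659802 in replicates 2 and 3. It had the fewest hemocyte and fat body marker CPM of T0, at 94.2 and 98.7 in sum. Replicates 2 and 3 had 189.6 and 113 for hemocytes, and 240.2 and 128 for fat body. Neuronal marker CPM summed to 249 in replicate 4, 238 in replicate 2 and 168 in replicate 3. The part of these markers in the result was not tested.

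**Figure D3:**
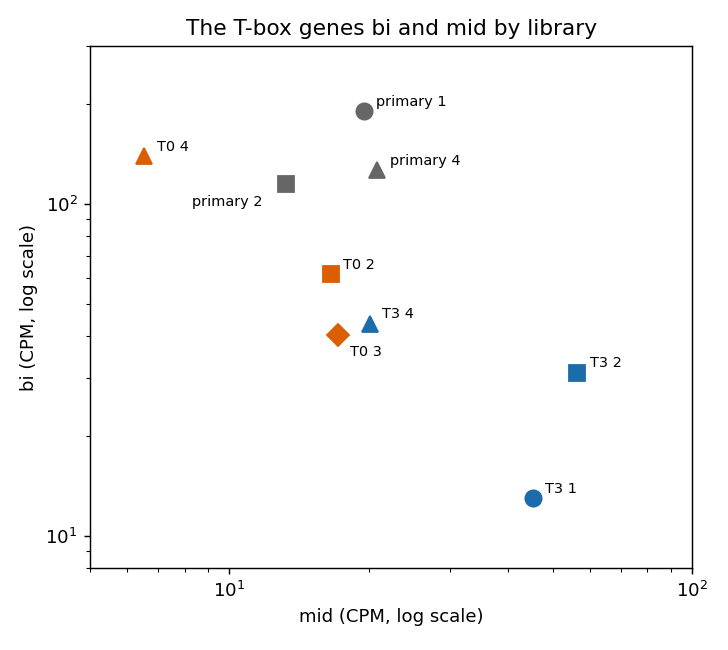
CPM of bi (y axis, log scale) against CPM of mid (x axis, log scale) in the 9 libraries, coloured by group and shaped by replicate number. T0 replicate 4 sits at the upper left with 139.6 CPM of bi and 6.55 CPM of mid, and T3 replicates 1 and 2 at the lower right.

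Per kilobase of exon, bi had the highest level of the 9 genes in primary (23.7 ± 6.68 CPM per kb), ahead of ems (14.5 ± 2.56). Then came Dr (9.69 ± 0.646), oc (8.87 ± 1.47) and Hmx (8.61 ± 1.90), which were closer together than their SD of up to 1.90. Next were mid (6.11 ± 1.39) and HGTX (5.53 ± 0.576), also within their spread, and last vnd (0.965 ± 0.198) and H15 (0.420 ± 0.168). In T0 the order was bi (13.2 ± 8.57), mid (4.59 ± 2.04) and Hmx (4.24 ± 0.404), with mid and Hmx within their spread, and every other gene at or under 0.168 CPM per kb. In T3 it was mid (13.9 ± 6.36), bi (4.80 ± 2.53), Hmx (1.86 ± 0.699) and H15 (0.279 ± 0.190), with the rest at or under 0.0634. In T3, ems (0.0338 ± 0.0586, from 2 counts in 1 library), HGTX (0.0220 ± 0.0210) and vnd (0.0634 ± 0.0365) could not be ordered beyond their spread. The mean of mid was sixth in primary and first in T3, but mid was not first in every T3 library. In T3 replicate 4, bi (43.7 CPM over 6095 exonic bases) was slightly above mid (20.1 CPM over 2920) per kilobase.

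For all 27 values, 9 genes in 3 comparisons, the log2 fold changes in the authors' deposited tables differed from those given here by at most 0.0144. In the authors' deposited table for T3 against T0, mid stands at 1.598, Hmx at -1.166 and bi at -1.464.

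Other genes of the same families and pathways were taken from 8 lists of 73 genes beside the 9, of which 62 could be tested. Of these, 38 fell and 8 rose in T0, with a median log2 fold change of -1.01, against 0.01 over all genes tested, of which 23.2% were called lower and 22.4% higher. Without T0 replicate 2, primary replicate 2 or primary replicate 4, 5 rose in T0. In T3, 40 fell and 5 rose, with a median of -1.32 (all genes, -0.0003, with 24.1% lower and 23.1% higher). For 21 of the 62, only primary libraries reached the cutoff of the filter. These were hkb, en, eve, Gsc, inv, E5, otp, croc, Ptx1, ind and sim. The rest were B-H1, B-H2, C15, lbl, slou, exex, mirr, gsb, gsb-n and wg. The direction of these 21, whatever their adjusted p, was thus partly fixed by the filter. So were the counts of genes that fell and the medians, here and in each list that holds any of them. The lists were also chosen with earlier results of these data known, and setting them beside all genes is a description. In T3 against T0, 0 passed by edgeR (median -0.35, all genes -0.01), 13 had an unadjusted p under 0.05, DESeq2 called 1 and limma-voom called 0. The one DESeq2 call was D, a Sox gene of the neuroectoderm, at 234 ± 90.8 CPM in T3 and 98.0 ± 39.4 CPM in T0 (log2 fold change 1.26, adjusted p = 0.0449 by DESeq2). In edgeR its adjusted p was 0.591.

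Of 14 head and brain region genes, 10 fell and 2 rose in T0 (median log2 fold change -2.75), and 10 fell and 1 rose in T3 (median -3.22). Gsc, a homeobox gene of the foregut and brain, had 2 counts in T0, 0 in T3 and 419 in primary. It was 190-fold lower in T0 (counting interval 52.3 to 1574; adjusted p = 8.55e-06) and at least 126-fold lower in T3 (adjusted p = 5.08e-06). The gap gene hkb had 0 counts in T0 and T3 and 486 in primary, at least 147-fold lower in both (adjusted p = 2.49e-05 and 2.12e-05). kn, a COE-class factor of the head, fell to 2.89 ± 1.72 CPM in T0 and 1.73 ± 0.573 CPM in T3, against 35.1 ± 6.85 CPM in primary (adjusted p = 1.47e-05 and 4.76e-06). otp fell to 0.0419 CPM in T3, against 9.08 CPM in primary (adjusted p = 9.46e-06). The paralogue of ems, E5, named here outside the rule for named genes, fell with 4 counts in T0 and 0 in T3, against 92 in primary (adjusted p = 3.32e-04 and 7.32e-05). The head gap gene btd rose to 131 ± 25.3 CPM in T0, against 81.5 ± 14.5 CPM in primary (log2 fold change 0.69 ± 0.17, adjusted p = 0.00608). In T3 btd was at 111 ± 6.82 CPM (0.44 ± 0.17, adjusted p = 0.0496). That call was lost without T3 replicate 4 (0.121), 2 (0.0964) or 1 (0.0670), primary replicate 2 (0.178) or 4 (0.0565) or T0 replicate 3 (0.0597). It was also lost with RLE scaling (0.0586) and a filter at 1 CPM (0.0501). cnc, a bZIP gene of the head segments, rose in T0 (0.66 ± 0.19, adjusted p = 0.0133). It was not called there without T0 replicate 2 (0.0513) or primary replicate 2 (0.0518) or 4 (0.0635).

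Of the 4 other columnar and neuroectoderm genes, 2 fell and 0 rose in both T0 (median -1.57) and T3 (median -1.64). The intermediate column gene ind had 0, 7 and 8 counts for T0 replicates 2, 3 and 4, 0 in T3, and 117, 97 and 130 in primary replicates 1, 2 and 4. It was 20.8-fold lower in T0 (counting interval 12.4 to 37.6; adjusted p = 3.40e-04) and at least 104-fold lower in T3 (adjusted p = 5.13e-05). The midline gene sim fell to 0.522 ± 0.311 CPM in T0 and 0.314 ± 0.274 CPM in T3, against 3.02 ± 1.01 CPM in primary (adjusted p = 0.0098 and 0.00331). The Sox gene SoxN, expressed across the neuroectoderm, was at 722 ± 62.0 CPM in T0, 567 ± 92.2 CPM in T3 and 569 ± 121 CPM in primary, and was not called (adjusted p = 0.146 and 0.984). It was called in T0 without primary replicate 1 (0.54, adjusted p = 0.0278). D was not called against primary either (adjusted p = 0.124 in T0 and 0.101 in T3). It was called in T0 without T0 replicate 3 (-0.99, adjusted p = 0.0169) and in T3 without T3 replicate 4 (0.93, adjusted p = 0.0122), and in both with no filter (adjusted p = 0.0151 and 0.00712).

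None of the 5 other T-box genes could be tested, since each was too scarce for the filter. Doc1 had 9 counts in T0, 4 in T3 and 23 in primary, and Doc3 had 9, 11 and 23 in the same order. The remaining Doc2, byn and org-1 had at most 5 counts in any group. Of the 12 other NK-like homeobox genes, 9 could be tested, and 7 fell and 1 rose in both T0 (median -4.36) and T3 (median -7.04, or -4.80 with the 3 genes at 0 counts set at their bound). B-H1, a Bar-class gene of sensory and brain neurons, fell to 7 counts in T0 and 1 in T3, against 440 in primary (adjusted p = 3.11e-06 and 1.04e-06). slou had 9 counts in T0 and 3 in T3, against 396 in primary (adjusted p = 1.16e-05 and 4.82e-06). B-H2 fell in T0 (0.0490 CPM, against 5.46 CPM in primary; adjusted p = 7.65e-05), and C15 was at 0 counts in T3, against 2.82 CPM in primary (adjusted p = 4.25e-05). NK7.1 rose to 55.3 ± 12.3 CPM in T0 and 67.7 ± 11.3 CPM in T3, against 32.2 ± 3.21 CPM in primary (log2 fold change 0.78 ± 0.18 and 1.07 ± 0.18, adjusted p = 0.00376 and 4.73e-04). lms was at 14.6 ± 1.24 CPM in T0, 12.7 ± 1.49 CPM in T3 and 13.3 ± 0.744 CPM in primary and was not called.

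Of the 6 motor neuron genes listed beside HGTX, 5 fell in T0 (median -3.52, or -3.49 with eve at its bound) and 6 in T3 (median -4.99, or -4.03 with eve at its bound). exex, the Hb9 gene that acts with HGTX in motor neurons, had 1 count in T0, 1 in T3 and 141 in primary (adjusted p = 5.79e-05 and 4.85e-05). The LIM homeobox genes Lim3 and tup fell to 0.652 and 2.81 CPM in T0 and to 0.176 and 1.35 CPM in T3, against 11.4 and 22.9 CPM in primary. The zinc finger homeobox gene zfh1 fell to 4.61 ± 1.16 CPM in T0 and 2.57 ± 0.0625 CPM in T3, against 27.2 ± 7.86 CPM in primary (adjusted p = 2.06e-05 and 3.22e-06). eve had 0 counts in T0 and T3 and 52 in primary (adjusted p = 0.00118 and 0.00114). The POU gene vvl was at 189.7 ± 19.7 CPM in T0, 143 ± 13.6 CPM in T3 and 226 ± 49.8 CPM in primary, and fell in T3 alone (-0.66 ± 0.17, adjusted p = 0.00713). Its T0 value did not pass (adjusted p = 0.246), and the difference between T3 and T0 did not pass either. The 9 neuronal markers fell with these genes, and their part in this result was not tested.

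**Figure D4:**
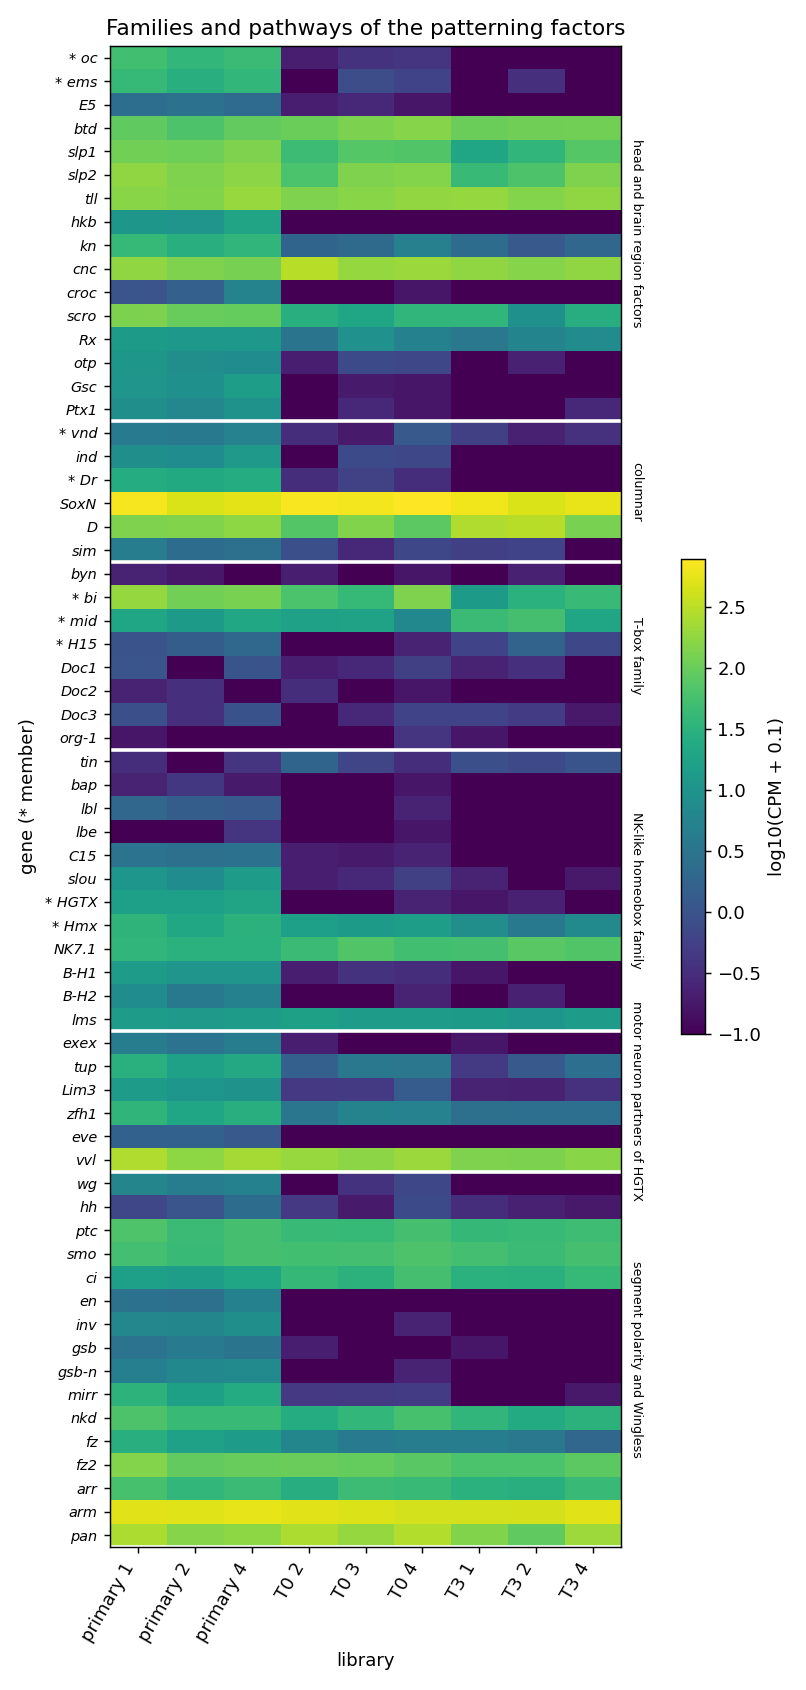
Levels of the 9 genes (asterisks) and of all lists but the Dpp and co-factor ones, as log10 of CPM + 0.1 (colour), in the 9 libraries (columns); rows are genes, grouped by list, each shown once. Dark cells mark levels near 0, and many rows are dark in all T0 and T3 columns. Others stay light to different degrees, among them SoxN, D, tll, btd, arm, cnc, NK7.1, bi and mid.

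Of 16 segment polarity and Wingless genes, 15 could be tested, and 7 fell and 1 rose in T0 (median -0.31), 8 fell and 1 rose in T3 (median -0.73). The Iroquois gene mirr fell to 12 counts in T0 and 1 in T3, against 908 in primary (adjusted p = 8.90e-07 and 3.28e-07). inv had 2 counts in T0, 0 in T3 and 251 in primary (adjusted p = 5.77e-05 and 2.99e-05). The paired-class gene gsb-n had 2 counts in T0, 0 in T3 and 221 in primary (adjusted p = 7.97e-05 and 4.15e-05). ci, the effector of Hedgehog signalling, rose to 42.2 ± 12.3 CPM in T0 and 33.1 ± 6.21 CPM in T3, against 16.8 ± 3.07 CPM in primary (adjusted p = 5.66e-04 and 0.00381). Among 12 Dpp pathway genes tested, 5 fell and 4 rose in T0 (median 0.27), and 5 fell and 2 rose in T3 (median 0.16). The receptor gene tkv rose to 96.4 ± 1.55 CPM in T0 and 90.9 ± 15.4 CPM in T3, against 49.9 ± 6.21 CPM in primary (adjusted p = 3.15e-04 and 5.43e-04). The nuclear factor gene shn rose too (log2 fold change 1.01 ± 0.21 and 0.89 ± 0.21, adjusted p = 0.00189 and 0.00386). The receptor gene sax rose in T0 (0.58 ± 0.17, adjusted p = 0.0162), but was not called without T0 replicate 2 (0.0626) or primary replicate 2 (0.0666) or 4 (0.0540). The receptor gene wit fell to 1.19 ± 0.0585 CPM in T0 and 0.744 ± 0.338 CPM in T3, against 15.2 ± 5.13 CPM in primary (adjusted p = 1.54e-05 and 5.30e-06). The spalt genes salm and salr, which respond to Dpp in the wing as bi does, fell by 2.00 and 1.49 on the log2 scale in T0 and by 2.24 and 1.56 in T3. Dad, another gene that responds to Dpp and chosen here after its values were seen, was at 15.9, 7.51 and 23.2 CPM for T0 replicates 2, 3 and 4. It had its highest T0 value in replicate 4, as bi did, and was not called (adjusted p = 0.145), but was called without T0 replicate 3 (1.01, adjusted p = 0.0180). Of the spalt genes, salm was also highest in T0 replicate 4 (6.55 CPM, against 6.01 CPM in replicate 2). By contrast, salr was highest in T0 replicate 2 (16.1 CPM, against 14.4 CPM in replicate 4). A part of Dpp signalling in the level of bi was not tested.

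The 4 co-factor genes, whose products bind homeodomain or other DNA-binding proteins, fell in T0 and T3, by less than 2-fold each. The medians were -0.48 and -0.66. In T3 the co-repressor gene gro was at 315 ± 38.3 CPM, against 509 ± 67.9 CPM in primary (-0.69 ± 0.15, adjusted p = 0.00250). CtBP (-0.58), exd (-0.62) and hth (-0.76) fell there as well. In T0 hth fell to 153 ± 22.5 CPM, against 277 ± 58.2 CPM in primary (-0.85 ± 0.18, adjusted p = 0.00223). The T0 call of gro (-0.44 ± 0.15, adjusted p = 0.0295) was lost without primary replicate 1 (0.110) or T0 replicate 2 (0.0684), 3 (0.0557) or 4 (0.0707), with no filter (0.0545) and in a fit of the 6 libraries (0.0503). That of CtBP (-0.47, adjusted p = 0.0216) was lost without primary replicate 1 (0.0679) or T0 replicate 2 (0.0646), and with no filter (0.0517). That of exd (-0.48, adjusted p = 0.0157) was lost without T0 replicate 2 (0.0525) or 3 (0.0616).

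Genes with a pattern most like each of the 9 were found by the root mean square difference of log2 CPM over the 9 libraries, each gene centred on its mean, among 4671 named genes. A smaller value means a closer pattern, on the log2 scale. The closest to oc was the Hox gene Antp (0.409), which had 6 counts in T0, 1 in T3 and 2268 in primary, followed by IA-2 (0.478). For ems they were tsh (0.763), a zinc finger gene of the trunk, and Gsc (0.767), so no gene was as close to ems as Antp was to oc. For Dr they were mirr (0.330) and the zinc finger gene sr (0.442), and for HGTX they were hkb (0.342) and cmpy (0.372). All of these genes were near 0 counts in T0 and T3, so their closeness partly reflects like levels in primary. There, Dr, mirr and sr averaged 24.7, 24.5 and 26.1 CPM, and HGTX, hkb and cmpy 16.7, 13.5 and 21.2 CPM. Closest to vnd were NfI (0.397) and dpr18 (0.412). For Hmx they were ham (0.368), a PR domain gene of neural fate, and the axon guidance gene Sema-1a (0.375). Closest to bi were btsz (0.547) and the N-cadherin gene CadN (0.572). The closest to mid was D (0.452), at 69.9, 143 and 81.1 CPM for T0 replicates 2, 3 and 4 and 271, 300.4 and 130.4 CPM for T3 replicates 1, 2 and 4. Next was the LIM homeobox gene Awh (0.488), at 10.8, 11.5 and 8.97 CPM in T0 and 19.3, 26.0 and 11.7 CPM in T3 in the same order. In T3, both D and Awh were lowest in replicate 4, as mid was, but both were picked for likeness over libraries that include it. In T0, Awh was lowest in replicate 4, as mid was, whereas D was lowest in replicate 2. H15 averaged under 1 CPM over the libraries and was not compared in this way.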

How the data were processed

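The authors deposited 3 tables with the same 9 columns of raw read counts for 16727 gene symbols, and the authors' log2 fold change of 1 comparison each. The build dm6 and the tools bedtools 2.25.0, edgeR, HISAT2 2.1.0 and HTSeq are listed, without roles, per the submitters' processing notes. Annotation release and strand setting were not given in the sources used. Per the labels, libraries had 13 PCR cycles and reads of 75 nt. Another 9 columns of per-sample normalised values per table were not used.

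The deposited counts entered the quasi-likelihood test of edgeR 4.0.16 (R 4.3.3), in a single fit of a mean per group over all 9 libraries, after filterByExpr (minimum count 10) and TMM scaling. This left 9082 genes, over which p-values were adjusted (Benjamini-Hochberg, two-sided, threshold 0.05). CPM use TMM-scaled library sizes; likeness used log2 CPM with a prior count of 2. SE is the log2 fold change over the square root of F. Pooled ratios carry exact (Clopper-Pearson) 95% intervals and a floor of 3 counts over a group, which cover counting error only. The fit was tested on simulated counts.

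Members and lists were chosen with earlier results of these data known. Named genes are the 9, per list and comparison all called genes where at most 6, otherwise the 3 with the smallest adjusted p in each direction, 2 most like genes per member, and genes overlapping a member. Each library is a pool of animals, and p-values measure the spread between pools. Alternatives were RLE and upper quartile factors, no filter, a filter at 1 CPM in 3 libraries, DESeq2 1.42.0, limma-voom (3.58.1), a fit on 6 libraries, the replicate number as a block and leaving out each library. Gene positions and exonic lengths come from the Ensembl annotation of dm6 coordinates. Sequences were not used here.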

Additional observations from a re-analysis of the deposited data

How the results depend on the processing

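T3 against T0 had 0 genes called, 746 at an unadjusted p under 0.05, and 0 to 5 without 1 library (5 without T3 replicate 2). It had 96 with no filter, 9 by DESeq2, 0 by limma-voom and 5 with the replicate block; of the family and pathway genes, 2 were called with no filter (D and ind) and 1 by DESeq2 (D). With no filter, 5 of the 9 genes (Dr, mid, H15, bi and Hmx), all picked with their values known, were called there as well. The causes were not tested. The totals of calls against primary, over all genes and over the family and pathway genes, stayed within 1.5 times under every alternative; of the latter, 8 rose in T0, and 5 without T0 replicate 2, primary replicate 2 or primary replicate 4. In T3 against T0, the log2 fold change of vnd ran from -1.29 to 0.88 without 1 library. That of HGTX, 0.03, ran from -0.48 to 2.69 without 1 library and was -0.42 with the replicate block. With 2 counts of HGTX in each group, the sizes of these values are not measured. No other log2 fold change of the 9 genes changed sign under any alternative run. Deviations of same-numbered libraries correlated at 0.12, 0.15 and 0.01 between T3 and primary (replicates 1, 2 and 4), -0.06 and -0.05 between T0 and primary and 0.20 and 0.26 between T3 and T0 (replicates 2 and 4). Between T3 and T0, different-numbered libraries correlated at -0.45 to 0.33, the highest for T3 replicate 4 with T0 replicate 3. Not every same-numbered value was over 0.1, and T0 shares only 2 numbers with either group, so the numbers were not taken as pairs. T0 replicate 3 alone has its number and adds nothing to the block fit. With the replicate block, 3799 genes were called in T0 and 4349 in T3 against primary (4144 and 4284 without it). Under it, the T0 calls of sim (adjusted p = 0.0588), gro (0.102), exd (0.0660), Med (0.0882) and brk (0.127) were lost, and SoxN (0.0255), D (0.0244), Dad (0.00720) and slp2 (0.0345) were called in T0. In T3, slp2 (0.00423), nkd (0.0129), arr (0.0491) and put (0.0388) were called. At this depth, a group with 0 counts allows 3 counts over its libraries.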
